A study of Mus musculus with 8 samples.

Results

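The genes described here encode 4 lysine acetyltransferases, Ep300 (p300), Crebbp (CBP), Kat2a (GCN5) and Kat2b (PCAF), and the 4 class IIa histone deacetylases, Hdac4, Hdac5, Hdac7 and Hdac9. They were chosen by name, as 8 of the 22234 protein-coding genes on chromosomes 1 to 19, X and Y of the GENCODE vM1 annotation. Every called ChIP-seq peak within 50 kb of their gene bodies was then collected. This gave 31 of 22051 intervals of the control p300 list, 11 of 9154 of the bexarotene p300 list, 13 of 5912 of the control myogenin list and 12 of 6642 of the bexarotene myogenin list. The cells were C2C12, an immortalized myoblast line from C3H mice, so the lists describe a cultured line and not muscle tissue. All cells were moved to low-serum medium and differentiated for 24 h, either without further addition (control) or with 50 nM bexarotene, a selective agonist of the retinoid X receptors, added when differentiation was induced. Chromatin of each condition was precipitated with an antibody against p300 or against myogenin, with 1 library per antibody and condition. The input and H3K27me3 samples of the series are not used here.

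Lysine acetyltransferases place acetyl groups on histones and on transcription factors, and p300 and PCAF act as coactivators of the MyoD family of muscle regulatory factors, of which myogenin is a member. The class IIa deacetylases have little catalytic activity of their own. They bind MEF2 transcription factors, recruit corepressor complexes with other deacetylases and hold muscle genes in check until calcium-dependent kinases drive them out of the nucleus. MEF2 proteins and the MyoD family in turn act together at many muscle promoters and enhancers, the former on an A/T-rich site and the latter on an E-box.

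The lists give coordinates alone, without tag counts or scores, so that peak height could not be compared, and they do not give the depth of each library. A peak called in a population of cells also does not separate fewer bound cells from less binding per cell. With 1 library per condition there was no replicate error to set a difference against, and no test between conditions was made. Shares are given with 95% Wilson intervals, which cover counting error over the peaks, regions or genes counted and nothing else. Among 10 muscle genes used to check the labelled cell, 9 had a control myogenin interval and 8 a bexarotene myogenin interval within 50 kb, where 32.4% and 33.0% of all protein-coding genes did. Ckm, the muscle creatine kinase gene, had none in either list, and Des, the desmin gene, had none with bexarotene. Intervals of the same factor that shared 1 bp or more between the 2 conditions were joined and are referred to as regions, which were control only, bexarotene only or called in both.

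The sequences below hold matches of letters to the consensus sites of the 2 protein families whose activity these genes regulate. Binding at a single site was not tested. All are the plus strand of mm9 (NCBIM37). The first set is the central 100 bp of the myogenin regions that lay in a member's body or within 1 kb of its start and held an E-box in capitals, which is either CAGCTG or the form CACCTG, read as CAGGTG on the opposite strand. Such an E-box was present within 50 bp of the centre in 50.2% of all 9553 myogenin regions.
Hdac4, intron 21, both conditions, chr1:93844187-93844286: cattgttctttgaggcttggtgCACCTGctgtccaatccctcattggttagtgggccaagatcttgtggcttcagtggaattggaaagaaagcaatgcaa
Hdac4, intron 1, both conditions, chr1:93996232-93996331: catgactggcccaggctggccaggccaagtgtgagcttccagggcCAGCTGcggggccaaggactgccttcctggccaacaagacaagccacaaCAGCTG
Kat2b, intron 1, both conditions, chr17:53735862-53735961: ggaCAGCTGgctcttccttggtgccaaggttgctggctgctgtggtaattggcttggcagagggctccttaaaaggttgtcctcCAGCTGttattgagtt
Ep300, upstream, control only, chr15:81415234-81415333: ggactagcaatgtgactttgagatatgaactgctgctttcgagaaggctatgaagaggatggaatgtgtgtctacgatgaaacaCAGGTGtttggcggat
Hdac9, upstream, bexarotene only, chr12:35213893-35213992: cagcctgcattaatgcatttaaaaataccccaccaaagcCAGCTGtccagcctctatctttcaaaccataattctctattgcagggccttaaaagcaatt
The Hdac4 intron 1 and Kat2b sequences each had 2 copies of CAGCTG, and the Hdac9 sequence had 1. The Hdac4 intron 21 and Ep300 sequences had no CAGCTG, and carried CACCTG and, in Ep300, CAGGTG instead, which are the same E-box read from opposite strands.

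The second set is the central 200 bp of p300 regions in class IIa genes that held the MEF2 consensus, in capitals. It lies outside the rule for printed sequences and was chosen after the values were seen, from 6 families of consensus searched. It is shown because the class IIa deacetylases are partners of MEF2 and because these sites were rare in the p300 lists as a whole.
Hdac4, intron 1, control only, chr1:93972129-93972328: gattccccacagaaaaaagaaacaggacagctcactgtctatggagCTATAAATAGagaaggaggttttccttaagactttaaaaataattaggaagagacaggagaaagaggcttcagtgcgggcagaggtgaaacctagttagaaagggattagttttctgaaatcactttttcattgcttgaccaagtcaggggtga
Hdac5, intron 3, control only, chr11:102069222-102069421: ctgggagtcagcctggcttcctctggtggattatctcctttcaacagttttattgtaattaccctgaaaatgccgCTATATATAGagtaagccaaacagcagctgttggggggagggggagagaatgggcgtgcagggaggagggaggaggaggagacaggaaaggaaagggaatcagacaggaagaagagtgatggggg
Hdac7, intron 1, both conditions, chr15:97642663-97642862: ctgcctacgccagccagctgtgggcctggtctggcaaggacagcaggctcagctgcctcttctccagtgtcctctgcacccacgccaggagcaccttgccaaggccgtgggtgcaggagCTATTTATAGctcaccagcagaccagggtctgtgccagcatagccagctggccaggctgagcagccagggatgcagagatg
For the remaining region, in Hdac5, which overlaps an annotated untranslated exon, only the site and the 10 bases to either side are given.
Hdac5, intron 2, both conditions, chr11:102080287-102080316: agggccctgtCTATAAATAGgtggagcatg
The Hdac4 site and this Hdac5 site were the same 10 letters, CTATAAATAG. On the plus strand these also contain TATAAA, the core of a TATA box, but Hdac4 and Hdac5 are transcribed from the minus strand. The Hdac7 site, CTATTTATAG, is the same sequence read from the opposite strand, and the other Hdac5 site was CTATATATAG.

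Most p300 intervals were at 3 of the 4 class IIa genes. In control cells 24 of the 31 intervals lay near Hdac4, Hdac5 or Hdac7, whose windows together span 607 kb of the 1900 kb examined, which is 3.95 intervals per 100 kb. These 3 genes are set together because they had the most p300 intervals, and the whole class IIa family had 2.19 per 100 kb, the acetyltransferase genes 0.705 and the genome, gene-poor sequence included, 0.831. Hdac4 had 11 control p300 intervals, Hdac7 had 7 and Hdac5 had 6. Kat2b had 3, Ep300 and Hdac9 had 2 each, and Crebbp and Kat2a had 0. As many control p300 intervals as at Hdac4 were found at 1.25% of all protein-coding genes, as many as at Hdac7 at 4.66% and as many as at Hdac5 at 6.62%. Long genes have longer windows, in which more intervals can fall. Per 100 kb of window the order was Hdac7 with 4.61, Hdac5 with 4.42 and Hdac4 with 3.44, densities reached by 4.35%, 4.80% and 8.42% of genes. Hdac9, with the longest gene body of the 8 at 481 kb, had 0.344 intervals per 100 kb, which was below the genome value.

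In the bexarotene list p300 intervals remained near 4 of the 8 genes, with 4 at Hdac4, 4 at Hdac7, 2 at Hdac5 and 1 at Kat2b. The members thus had 0.355 times as many p300 intervals as in control, and the whole list had 0.415 times as many. Genes with at least 1 interval made up 6 of 8 in control, where 53.8% of all protein-coding genes had one, and 4 of 8 with bexarotene, where 35.2% did. The 95% intervals of these shares, 40.9% to 92.9% and 21.5% to 78.5%, include the value for all genes in the same list.

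Myogenin intervals were spread over the 2 families. The 4 acetyltransferase genes had 7 control and 3 bexarotene intervals, or 0.986 and 0.423 per 100 kb, and the 4 class IIa genes had 6 and 9, or 0.505 and 0.757 per 100 kb. The genome values were 0.223 and 0.250. Over both families, 8 of 13 control and 4 of 12 bexarotene myogenin intervals were longer than the smallest of their list. In control 7 of 8 members had a myogenin interval within 50 kb, compared with 32.4% of all genes, and in bexarotene 6 of 8 did, compared with 33.0%. Hdac9 was the member without one in control, and Crebbp and Kat2a were the members without one in bexarotene. The only control myogenin intervals of Crebbp and Kat2a had the smallest length of their list, 172 bp. All bexarotene myogenin intervals of Ep300 and Hdac5 likewise had the smallest length, 168 bp. The lower ends of the 95% intervals were 52.9% and 40.9%, above the values for all genes. Those values were not matched to the members for length. The 8 members were also chosen with earlier results of these data known, and the intervals cover counting error only.

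**Figure D1:**
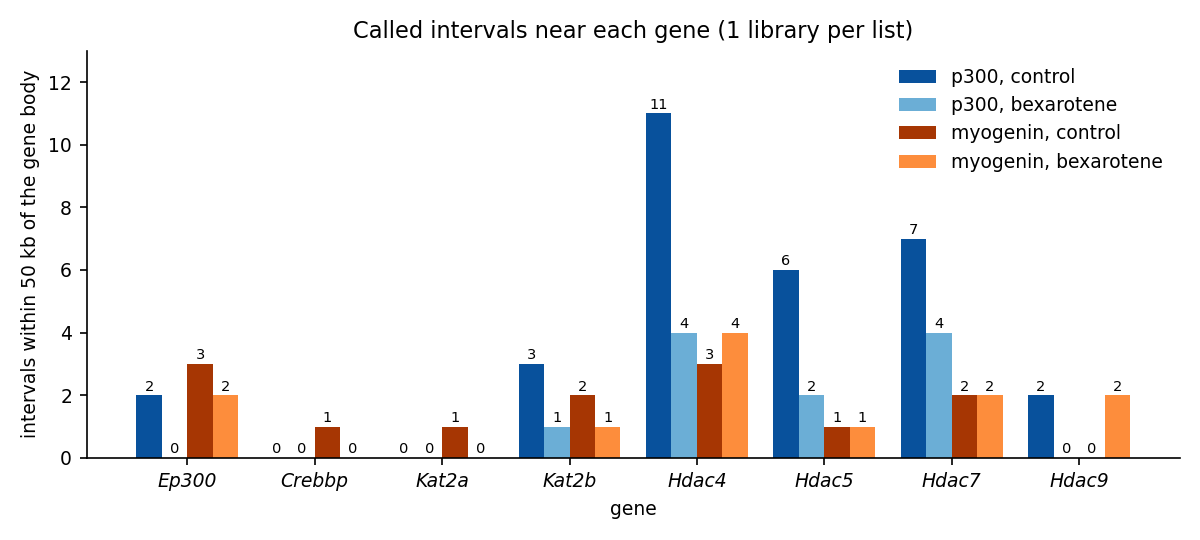
Number of called intervals (vertical axis) within 50 kb of each gene body (horizontal axis) in the 4 lists, 1 library each, so there are no error bars. The control p300 bars stand highest at Hdac4 (11), Hdac7 (7) and Hdac5 (6), while Crebbp and Kat2a have 1 control myogenin interval each and nothing else.

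Ep300, which encodes p300 itself, lies on chr15:81415781-81482507 on the plus strand. All of its intervals in the 4 lists were within 3 kb of its starts, and none was called in both conditions. Control p300 was called at its promoter, with 1 interval of 159 bp centred at +177 from the most upstream start (chr15:81415879-81416037, exon 1 of Ep300-202) and 1 of 393 bp centred -175 bp from the start of Ep300-201 (chr15:81416273-81416665, also in that exon). The central 200 bp of these intervals were 70.5% and 76.0% G and C, and the intervals themselves held no E-box. In the bexarotene list the nearest p300 interval was 92.9 kb from the gene.

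Myogenin was called at 3 positions around the Ep300 start in control, at -497, +1166 and +2522 bp, with lengths of 220, 172 and 358 bp. It was called at 2 other positions with bexarotene, at -2429 and +2024 bp, both of 168 bp. The control and bexarotene intervals overlapped neither each other nor the p300 intervals. Both bexarotene intervals and the control interval at +1166 had exactly the smallest length of their list, 168 and 172 bp. The E-box printed above, CAGGTG, lay in the control interval at -497 bp, and the other Ep300 myogenin regions had none within 50 bp of their centres.

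Kat2b, which encodes the coactivator PCAF, lies on chr17:53706186-53812045 on the plus strand. Its longest p300 interval was in intron 9 (chr17:53789617-53789993), 5783 bp past the start of the short transcript Kat2b-004, and was called in both conditions, at 377 bp in control and 254 bp with bexarotene. The remaining control p300 intervals were both 159 bp long. They lay at -214 bp from the start of Kat2b-001 and +321 bp from that of Kat2b-002, and neither was called with bexarotene. Myogenin was called in both conditions in intron 1 (chr17:53735726-53736097), 29726 bp from the gene start, with 367 bp in control and 280 bp with bexarotene. This is the region with 2 CAGCTG sites printed above, and p300 was not called there in either condition. A further myogenin interval, control only, was 16.0 kb beyond the gene end and 514 bp from the start of Sgol1, which encodes shugoshin, a guardian of sister chromatid cohesion.

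Crebbp (chr16:4084048-4213404, minus strand), which encodes the p300 paralog CBP, had 1 interval in all 4 lists. It was a control myogenin interval of 172 bp in intron 1 (chr16:4212485-4212656), 652 bp past the start of Crebbp-202. The nearest p300 interval was 127 kb from the gene in control and 242 kb with bexarotene, in contrast to Ep300, whose own promoter was in the control p300 list. Kat2a (chr11:100566060-100573779, minus strand), the gene of the SAGA complex acetyltransferase GCN5, also had 1 interval, again myogenin in control. It was centred at -25511 bp from the Kat2a start and only 200 bp from the start of Rab5c, an endosomal GTPase gene, so that no interval of any list was nearest to a Kat2a start.

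**Figure D2:**
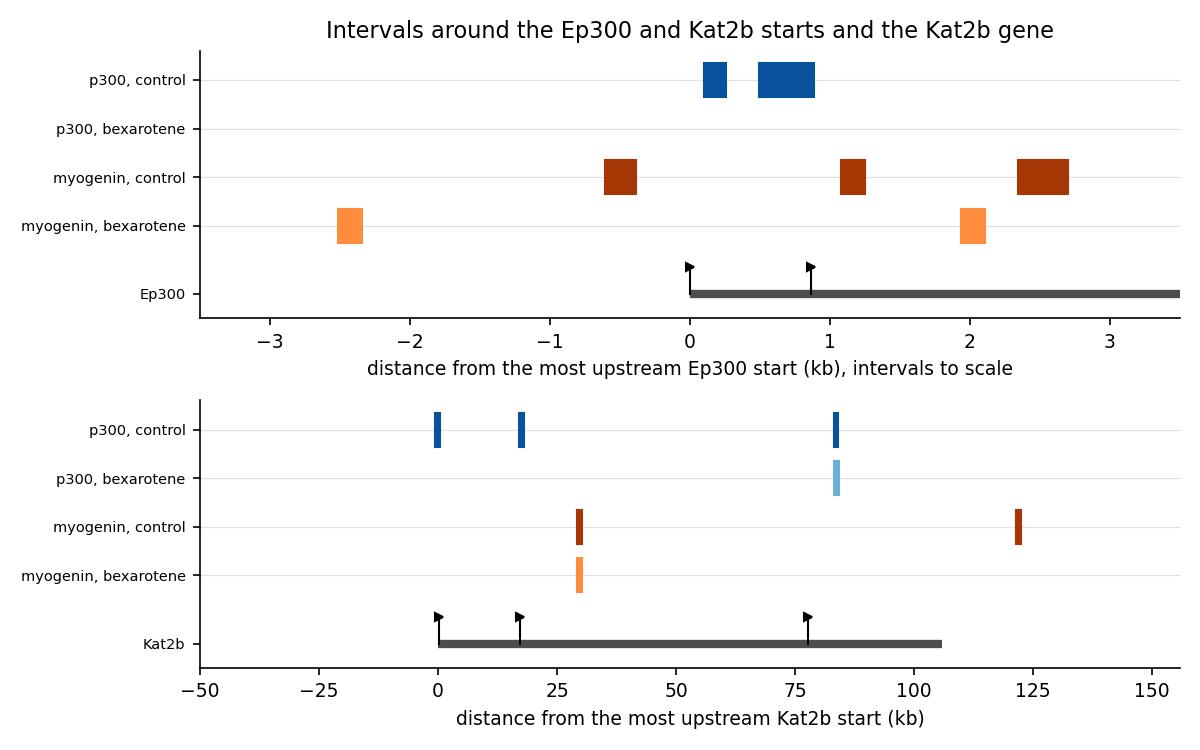
Called intervals by list (rows) around Ep300 (top, drawn to scale) and Kat2b (bottom, short marks widened to be visible), against distance from the most upstream start in kb, with gene bodies as bars and transcript starts as flags. At Ep300 the control myogenin intervals at -497, +1166 and +2522 bp and the bexarotene intervals at -2429 and +2024 bp do not coincide, and p300 appears in the control row only.

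Hdac4 (chr1:93825362-94044970, minus strand, with the 2 records of the annotation joined) had the most intervals of any member, 22 over the 4 lists. Its encoded deacetylase is a MEF2 corepressor that responds to calcium signals in muscle. Of the 11 control p300 intervals 9 were in introns and 2 were 34.8 and 32.4 kb upstream of the gene. No p300 interval of either list was within 1 kb of an annotated Hdac4 start. Between +72741 and +133649 bp lay a run of 5 p300 regions in introns 1 to 3 that no myogenin interval touched. The longest control p300 interval of the gene, 550 bp in intron 1 (chr1:93971954-93972503), belongs to this run, was control only and holds the MEF2 sequence printed above. The longest bexarotene p300 interval, 347 bp, was in the same run (chr1:93951768-93952114), within a control interval of 426 bp.

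All 4 myogenin regions at Hdac4 were intronic and overlapped p300. At +17783 bp in intron 1 (chr1:94027100-94027274) myogenin was called in both conditions, at 172 and 168 bp, inside a p300 region that was 498 bp in control and 206 bp with bexarotene. At +48688 bp in the same intron (chr1:93996167-93996396) myogenin was called at 230 bp in control and 168 bp with bexarotene, and p300 at 340 and 263 bp. These 2 regions were centred 12 bp apart, and the myogenin region holds the pair of CAGCTG sites. Both factors were thus called in both conditions at these 2 places.

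The distal pair of Hdac4 regions differed between conditions. At +191939 bp in intron 19 (chr1:93852947-93853114) myogenin was called with bexarotene only, at the smallest length of 168 bp, within a p300 region called in both conditions at 401 and 302 bp. At +200733 bp in intron 21 (chr1:93844075-93844398) the reverse arrangement was found, with myogenin in both conditions at 316 and 324 bp and p300 in control only, at the smallest length of 159 bp. The first had no E-box within 50 bp of the myogenin centre but held 1 over its length, and the p300 region there had a CAGCTG within 50 bp of its own centre. The second had the CACCTG printed above.

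Hdac5 (chr11:102055746-102091480, minus strand), whose deacetylase is exported from the nucleus after phosphorylation, had p300 at an internal start and myogenin at its main start. The p300 region at the start of Hdac5-009, centred -89 bp from it in intron 2 of the longer transcripts (chr11:102080220-102080441), was called in both conditions, with 222 bp in control and 158 bp with bexarotene. It holds the 30-base MEF2 sequence printed above. In intron 3 lay 2 control-only p300 intervals of 316 and 159 bp, at +21188 and +22158 bp, and the latter carries CTATATATAG and a CAGCTG. The longest p300 interval of the window, 407 bp in control and 258 bp with bexarotene, was centred at -15058 bp and nearer to the start of BC030867 than to Hdac5. Of the 2 other control-only intervals, 1 was at -163 bp from that same neighbour and 1 was 34 bp past the start of Tmem101, a downstream gene.

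Myogenin at Hdac5 was called in control at -303 bp from the main start (chr11:102091671-102091895, 225 bp), with no E-box, and not with bexarotene. The bexarotene list instead had 1 interval of 168 bp at -37511 bp, which was -1066 bp from the start of Asb16, a gene of the ankyrin repeat and SOCS box family. No Hdac5 myogenin interval overlapped p300.

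Hdac7 (chr15:97623095-97674933, minus strand), a deacetylase gene best known in endothelial cells and thymocytes, had the densest p300 calls. Its p300 regions within the body were all in intron 1 of the longest transcript, Hdac7-001, and 2 of them lay at or just upstream of a cluster of internal starts. The region at -535 bp from Hdac7-005 (chr15:97662582-97662884) was called in both conditions, at 303 and 158 bp. The region at +58 bp from Hdac7-202 (chr15:97661933-97662155, 223 bp, 71.5% G and C) was control only. At +32170 bp (chr15:97642609-97642917) p300 was called at 309 bp in control and 158 bp with bexarotene, and this is the region with CTATTTATAG printed above, which also holds 3 E-boxes over its length. The last bases of that site (chr15:97642782-97642791) lie beyond the end of the bexarotene interval at 97642789. A control-only interval of 200 bp lay at +19287 bp. The longest p300 interval of each list, 346 bp in control and 281 bp with bexarotene, was 41.6 kb beyond the gene end in Rapgef3, a gene for a cAMP-responsive exchange factor. A control-only interval of 290 bp was at -110 bp from the start of Slc48a1, a heme transporter gene.

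Myogenin at Hdac7 was called in both conditions at +24338 bp (chr15:97650446-97650744), where it overlapped p300 in both conditions. Its interval was 172 bp in control and 299 bp with bexarotene, and the p300 interval there was nearly the same in both, 199 and 198 bp. A control-only myogenin interval of 230 bp at +31603 bp lay between this region and the p300 region with the MEF2 sequence, without overlapping either. A bexarotene-only interval of 168 bp with 1 E-box at -33330 bp lay in an intron of Vdr, which encodes the vitamin D receptor, a partner of the retinoid X receptors on DNA.

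Hdac9 (chr12:34732451-35213754, minus strand), another MEF2 corepressor gene, differed from the other class IIa genes in that no interval of either factor was called in both conditions. Myogenin was in the bexarotene list only, at -189 bp from the most upstream start (chr12:35213859-35214026, 168 bp), with the CAGCTG printed above, and in intron 6 at +304194 bp (chr12:34909453-34909666, 214 bp). The nearest control myogenin interval was 722 kb from the gene. p300 was in the control list only, in intron 14 (chr12:34761008-34761352, 345 bp) and 7.18 kb beyond the gene end (chr12:34724543-34725274, 732 bp, the longest of all 67 intervals). Both were nearer to the start of Twist1, which encodes a bHLH repressor of myogenesis, than to any Hdac9 start, at 118644 and 82373 bp. The nearest bexarotene p300 interval was 471 kb away.

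**Figure D3:**
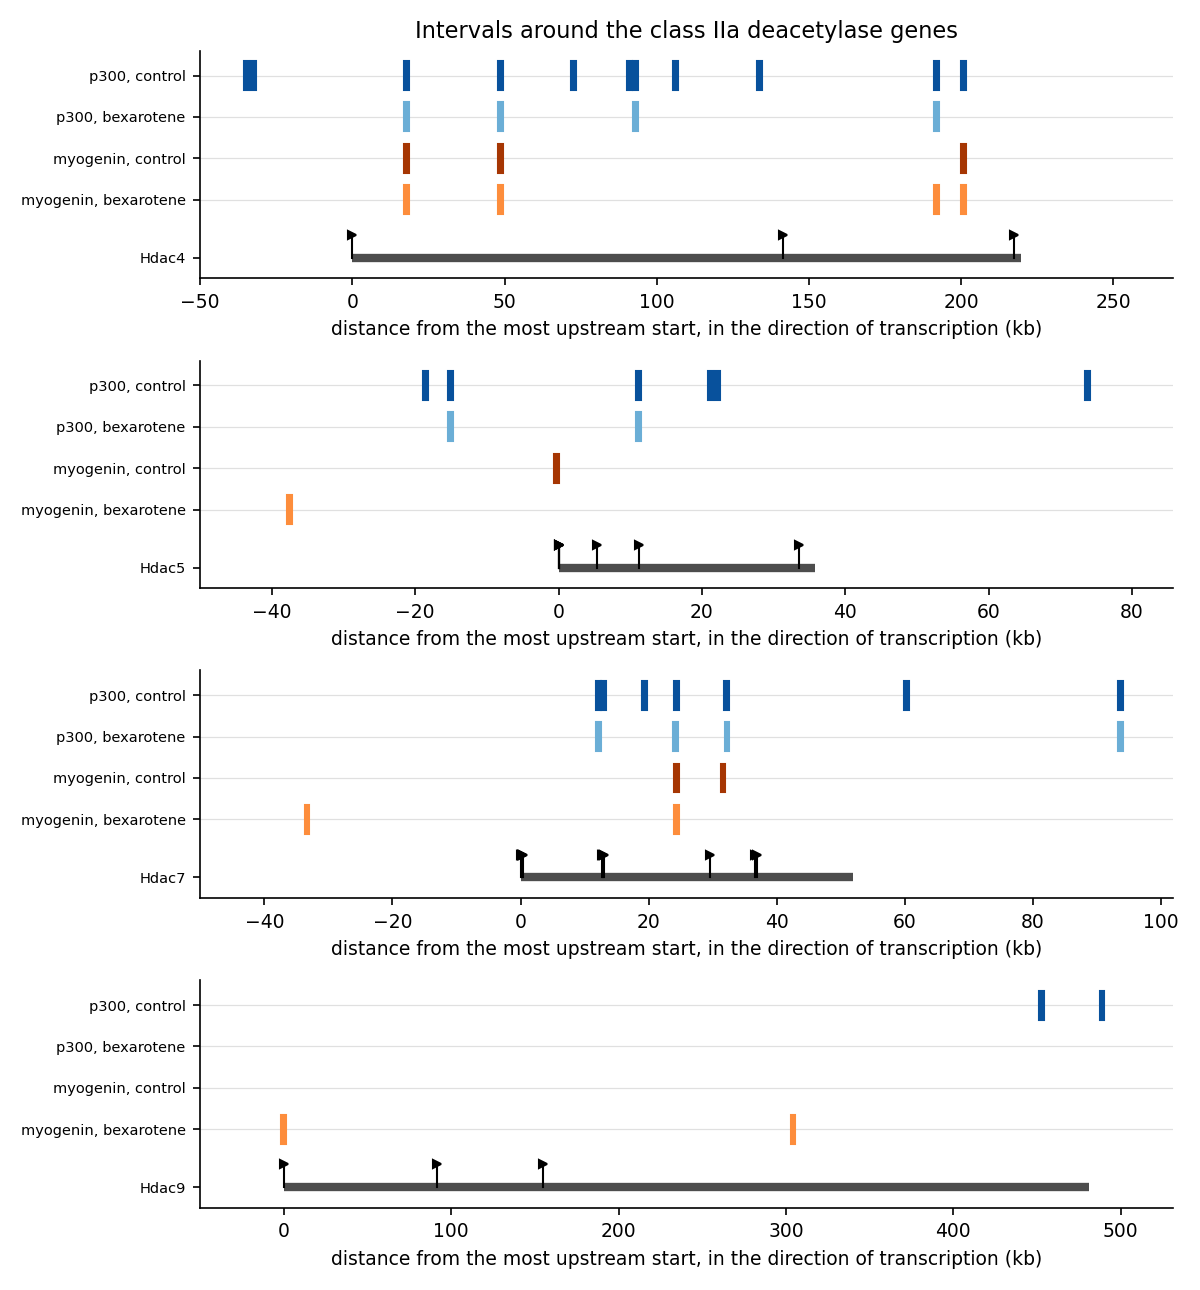
Called intervals by list (rows) around Hdac4, Hdac5, Hdac7 and Hdac9, against distance in kb from the most upstream start in the direction of transcription, each panel with its own scale, marks widened to be visible, gene bodies as bars and transcript starts as flags. Myogenin and p300 marks line up at 4 positions in Hdac4 and 1 in Hdac7, and at Hdac9 the control row of p300 and the bexarotene row of myogenin hold 2 intervals each.

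Near the members every bexarotene p300 interval lay on a control interval. All 11 overlapped the control list (74.1% to 100%), where 79.7% of the whole bexarotene list did, and of the 31 control intervals 11 overlapped the bexarotene list, 35.5% (21.1% to 53.1%) against 32.7% of the whole list. Merged, the p300 regions were 20 control only, 11 both and 0 bexarotene only. These were 64.5%, 35.5% and 0% of the members' regions. Of all 23903 p300 regions 62.1% were control only, 30.1% both and 7.76% bexarotene only. The 11 regions called in both conditions were 4 at Hdac4, 4 at Hdac7, 2 at Hdac5 and 1 at Kat2b.

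In each of these 11 pairs the bexarotene interval was the shorter one. The difference ranged from -292 bp, at +17671 bp in Hdac4, to -1 bp, at +24263 bp in Hdac7. The median length went from 346 to 254 bp. The smallest lengths of the lists were 159 bp in control and 158 bp with bexarotene, so the sign of the -1 bp pair may be set by the lists. Across all 7097 overlapping p300 pairs 90.0% had a shorter bexarotene interval, so the members' count followed the list. Length here is that of the called region, and how far it moves with library depth was not tested, since the lists give no tag totals.

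Of 13 control myogenin intervals 5 were also called with bexarotene, 38.5% (17.7% to 64.5%) against 50.6% of the whole control list. Of 12 bexarotene intervals 5 were also called in control, 41.7% (19.3% to 68.0%) against 45.1%. Without Hdac4 this share of bexarotene intervals was 25.0% (2 of 8). The merged regions were 8 control only (40.0%), 5 both (25.0%) and 7 bexarotene only (35.0%). Of all 9553 myogenin regions 30.6%, 31.3% and 38.2% were of these classes. In the 5 pairs the bexarotene interval was shorter in 3 and longer in 2, compared with 54.0% shorter over 2977 pairs. In 1 of the 3, at +17783 bp in Hdac4, both intervals had the smallest length of their list, 172 and 168 bp, so that its sign is set by the lists. Without such pairs the counts were 2 shorter and 2 longer, and 45.5% of 2514 pairs were shorter. The p300 pairs of the members held 0 of this kind, and without them 89.2% of all p300 pairs were shorter. All 5 regions called in both conditions were intronic, 3 in Hdac4, 1 in Hdac7 and 1 in Kat2b.

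**Figure D4:**
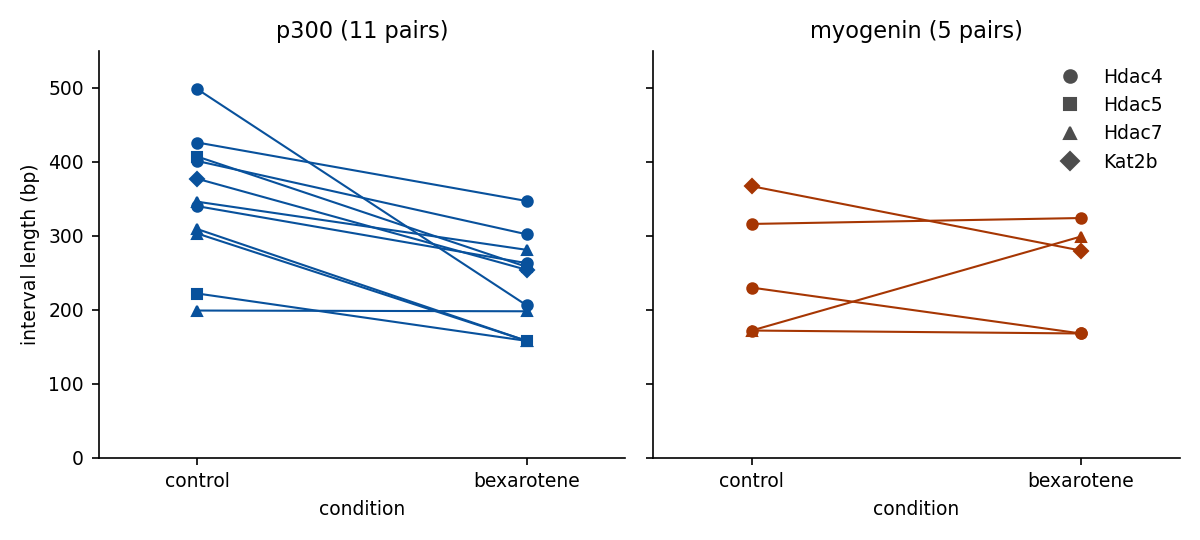
Length in bp (vertical axis) of control and bexarotene intervals that overlap, joined by a line for each pair, with p300 on the left, myogenin on the right and the gene given by the symbol. All 11 p300 lines fall and the 5 myogenin lines go in both directions, with 3 falling, of which 1 joins the smallest lengths of the 2 lists (172 and 168 bp), and 2 rising.

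Intervals of both factors were found at starts of the members. Control p300 was centred within 1 kb of a start of its own gene at 4 of the 8 members, Ep300, Kat2b, Hdac5 and Hdac7, against 10.7% of all genes, and bexarotene p300 at 2, Hdac5 and Hdac7, against 5.24%. Of these genes Ep300 and Kat2b had such an interval at the most upstream start, in control only, and Hdac5 and Hdac7 had theirs at internal starts. Control myogenin was within 1 kb of a start of Ep300, Crebbp and Hdac5, 3 of 8 against 6.08% of all genes. Bexarotene myogenin was at Hdac9 alone, 1 of 8 against 3.73%. The Wilson intervals of these shares were 21.5% to 78.5% and 7.15% to 59.1% for p300, control first. For myogenin they were 13.7% to 69.4% and 2.24% to 47.1%, and only the last includes the value for all genes. A gene with more annotated starts can be counted at more places, and the values for all genes were not matched for that. All 5 myogenin regions within 1 kb of a member's start were called in a single condition, 4 in control and 1 with bexarotene, and the same held for 86.6% of all 1990 myogenin regions within 1 kb of a protein-coding start. Of the 7 p300 regions at members' starts 2 were called in both conditions and 5 in control only. Of all 23903 p300 regions, at starts or elsewhere, 30.1% were called in both conditions and 62.1% in control only.

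Counting the starts of neighbouring genes too, 10 of 31 control p300 intervals were within 1 kb of a protein-coding start, 32.3% (18.6% to 49.9%) against 11.0% of the list, and 2 of 11 bexarotene intervals, 18.2% (5.14% to 47.7%) against 12.4%. For myogenin the counts were 6 of 13 in control, 46.2% (23.2% to 70.9%) against 24.2%, and 1 of 12 with bexarotene, 8.33% (1.49% to 35.4%) against 12.5%. Windows drawn around genes hold more starts than the genome does, and these whole-list values were not matched for that. Of the 31 p300 regions 20 were in introns, 2 in exons, 5 upstream and 4 downstream. Of the 20 myogenin regions 11 were in introns, 1 in an exon, 7 upstream and 1 downstream. Places were not counted over all regions, and windows drawn around gene bodies favour introns by construction. Introns and exons here are those of the longest transcript at each place, and the intronic Ep300 myogenin regions at +2024 and +2522 bp and the Hdac7 p300 region at +58 bp from Hdac7-202 lie in exons of shorter transcripts.

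Overlap of myogenin with p300 was found at Hdac4 and Hdac7 and at no other member. Of 20 myogenin regions 5 overlapped a p300 region, 25.0% (11.2% to 46.9%) against 34.7% of all myogenin regions, and 5 of 31 p300 regions overlapped myogenin, 16.1% (7.09% to 32.6%) against 13.8% of all p300 regions. Among the 5 myogenin regions called in both conditions 4 overlapped p300, the exception being Kat2b intron 1. Of the 7 bexarotene-only regions 1 did, in Hdac4 intron 19, and of the 8 control-only regions 0 did. Over all myogenin regions the shares with p300 had the same order, 51.0% of those called in both conditions, 30.9% of bexarotene only and 22.8% of control only. The 2 factors shared 159 to 230 bp at these places, with centres 12 to 111 bp apart. Without Hdac4, which supplied 4 of the 5 overlaps, the share of myogenin regions with p300 was 6.25%, and when the overlap had to cover 50% of each region it was 10.0%.

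An E-box within 50 bp of the centre was found in 6 of 20 myogenin regions, 30.0% (14.5% to 51.9%) against 50.2% of all. By class these were 3 of 5 called in both conditions, 2 of 7 bexarotene only and 1 of 8 control only, and over all regions the shares were 69.8%, 52.0% and 27.8%. The remaining E-box region, in Vdr intron sequence near Hdac7, is outside the member genes and is not printed. Counted over the whole length of the regions the share was 55.0%, against 67.0% of all myogenin regions, and with CAGCTG alone in the central 100 bp it was 15.0% against 39.1%.

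The MEF2 consensus was found in the central 200 bp of 4 of 31 p300 regions, 12.9% (5.13% to 28.9%), and in 149 of all 23903, or 0.623%. The 4 regions are those printed above, 1 in Hdac4, 2 in Hdac5 and 1 in Hdac7, and the sites were 20 to 49 bp from the region centre. A looser form of the consensus was found in 5 of 31 regions and 2.89% of all, and a central window of 400 bp gave 4 of 31 and 1.16% of all. Leaving out Hdac4, Hdac5 or Hdac7 in turn gave 15.0%, 8% and 12.5%. The consensus was noticed after the values were seen and the members are few, so these shares are a description, and a match of letters does not show that a MEF2 protein was bound there. None of the 20 myogenin regions held it, where 1.03% of all myogenin regions did. The AP-1 consensus (TGACTCA or TGAGTCA) was found in 5 of 31 p300 regions, 16.1% (7.09% to 32.6%) against 26.7% of all p300 regions, and 2 copies were in the Hdac9 intron 14 interval. The Runx consensus was in 22.6% (11.4% to 39.8%) of the members' p300 regions against 30.2% of all. The Tead consensus was in 19.4% (9.19% to 36.3%) against 18.3%. In the myogenin regions Runx was in 35.0% (18.1% to 56.7%) against 26.1%, and Tead in 25.0% (11.2% to 46.9%) against 17.3%.

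**Figure D5:**
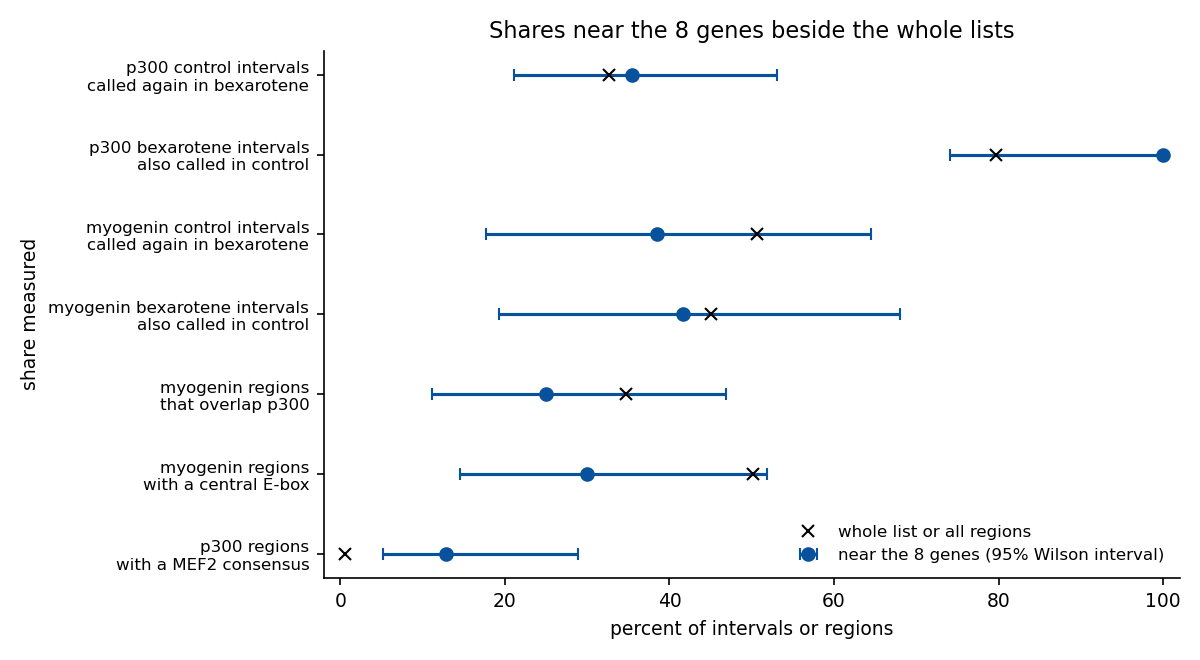
Percent of intervals or regions (horizontal axis) for 7 measures (rows), with the value near the 8 genes as a circle with its 95% Wilson interval and the value of the whole list or of all regions as a cross. The measures are the overlap between conditions in the 4 lists, the overlap of myogenin with p300, the E-box and the MEF2 consensus, which was picked after its values were seen and stands at 12.9% (5.13% to 28.9%) near the genes and 0.623% in all p300 regions.

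Related genes were examined through lists of other enzymes and partners, and those named were picked after their counts were seen. Over all protein-coding genes, an interval within 50 kb was found at 53.8% and 35.2% for p300 and at 32.4% and 33.0% for myogenin, control first, and the counts below are to be read against these shares. Among 10 further acetyltransferase and coactivator genes, 7 had a control p300 interval within 50 kb and 5 a bexarotene one, with 20 and 8 intervals, and Myst4 (Kat6b) accounted for 8 and 2 of them. Control and bexarotene myogenin were near 8 and 6 of these genes. Among the 7 class I, IIb and IV deacetylase genes, control p300 was near 4 and bexarotene p300 near 2, and myogenin was near Hdac11 alone, with 2 intervals in each condition. Control p300 density over this set was 0.773 per 100 kb, compared with 2.19 for the class IIa genes and 0.831 for the genome. Only the 4 acetyltransferase members, with 0.705, were lower among the gene sets examined. The further acetyltransferase and coactivator genes had 1.04 and the muscle genes 2.00. The sirtuin genes and class IIa partners described below had 1.41 and 1.73. Hdac2, Hdac6 and Hdac8 had no interval in any list.

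The 7 sirtuin genes, which encode NAD-dependent deacylases, had 12 and 8 p300 intervals near 5 and 3 genes and 12 myogenin intervals in each condition near 5 and 6 genes. Of the control p300 intervals 6 were in the window of Sirt4, as were 6 of the bexarotene ones. Among 10 partners of the class IIa deacetylases, 7 had control p300 and 5 bexarotene p300, with 39 and 13 intervals, and myogenin was near 7 and 6 of them, with 17 and 15 intervals. Camk2d, a calcium-dependent kinase gene, had 9 and 3 p300 intervals with 1 and 0 myogenin intervals. Mef2d had 3 and 0 p300 intervals and 5 myogenin intervals in each condition. Counts in the bexarotene p300 list were lower than in control in each of these sets, as they were in the list as a whole.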

How the data were processed

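ChIP-seq peak lists of p300 and myogenin in C2C12 cells, control and bexarotene, were used, with 1 library per list. Per the submitters' notes and the study's methods, the authors aligned p300 reads with Bowtie and myogenin reads with BWA-MEM to mm9, removed duplicates with Picard and called peaks per library with findPeaks of HOMER, in its factor style and with regions of variable length. The positions deposited by the authors, counted from 0 at the start, are printed counted from 1, and the authors' threshold could not be varied. The lists do not give the depth of each library.

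Intervals within 50 kb of a gene body were assigned to that gene (GENCODE vM1, with the genome NCBIM37, whose chromosome names and lengths are those of mm9). Overlap required 1 bp. Distances run from the interval centre to starts of protein-coding transcripts. E-boxes were sought on both strands in the central 100 bp, and AP-1, Runx, Tead, Sp1 and MEF2 consensus sequences in the central 200 bp.

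The text names all 8 members, their intervals within 1 kb of a start, their myogenin regions and their longest p300 intervals. E-box sequences are printed for myogenin regions in a member's body or within 1 kb of its start. The members and gene lists were chosen with earlier results of these data known. Kat6a, Kat6b, Kat7 and Kat8 were matched as Myst3, Myst4, Myst2 and Myst1. Alternatives changed the window, the assignment by nearest start, the smallest intervals, the overlap, the starts, the p300 list and the E-box. The alternatives without Hdac4, with its longer record only, with centres in the window and for MEF2 were chosen after seeing the data. The tools were scipy 1.17.1, pandas 2.3.3, numpy 2.4.6, matplotlib 3.10.9 and pysam 0.24.0, under Python 3.11.15, and the functions were tested on simulated data in 6 steps of 400 items, of which 6 were recovered.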

Additional observations from a re-analysis of the deposited data

How the results depend on the processing

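Of 78 values recomputed under alternative settings 68 stayed within 1.5 times the main count or within the 95% interval of the main share, and 10 did not. The intervals of the shares are wide, and 3 of the 68 still differed by over 1.5 times. The E-box share was 15.0% with CAGCTG alone, the share of bexarotene myogenin intervals also called in control fell from 41.7% to 25.0% without Hdac4, and the MEF2 share was 8% without Hdac5. A window of 100 kb raised the bexarotene counts from 11 to 18 for p300 and from 12 to 19 for myogenin. Keeping only intervals longer than the smallest of their list left 8 control and 4 bexarotene myogenin intervals, from 13 and 12. Requiring a reciprocal overlap of 50% lowered the share of myogenin regions that overlap p300 from 25.0% to 10.0%, and counting E-boxes over the whole region raised the share with an E-box from 30.0% to 55.0%. Without Hdac4, an alternative chosen after seeing the data, p300 intervals fell from 31 to 20 in control and from 11 to 7 with bexarotene, the share of control p300 intervals within 1 kb of a start rose from 32.3% to 50.0%, and the share of myogenin regions with p300 was 6.25%. Each of these alternatives adds or removes intervals, overlaps or sequence by construction. No paired analysis was possible because each condition has 1 library and the results come from no test.

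The lists hold called positions only. A peak missing from a list can lie just under the calling threshold, and 34.3% to 54.8% of the intervals of each list had exactly its smallest length. Near the members these were 8 of 31 and 3 of 11 p300 intervals and 5 of 13 and 8 of 12 myogenin intervals, control first. p300 and myogenin libraries were aligned with different programs and, per the study's methods, sequenced on different instruments. The series also holds a separate input sample for each. The antibody cannot be told apart from the aligner, the instrument or the input. With 1 library per condition, the treatment and the library cannot be told apart either.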
